A study of Mus musculus with 10 samples.

Results

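Chromatin remodellers and histone modifiers were followed as a list of 46 autosomal genes in the embryonic mouse cochlear duct. The list held 11 subunits of SWI/SNF complexes, 7 genes of the ISWI and CHD families, 5 genes each of Polycomb repressive complexes PRC2 and PRC1, 5 writers and erasers of histone methylation, 7 genes of histone acetylation and 6 of DNA methylation. Open regions were assigned to the nearest protein-coding gene within 100 kb. That gave these genes 266 of the 76109 regions open in at least 1 library, and 67113 of those regions lay within 100 kb of some coding gene. A region within 1 kb of either end of its gene was called a gene-end region, and the rest were called distal. The 46 genes had 58 gene-end and 208 distal regions, and 142 of the distal ones lay inside the gene.

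The tissue was the epithelial layer of the cochlear duct at E13.5, freed from its surroundings with enzymes. ATAC-seq, which cuts and tags accessible DNA with the Tn5 transposase, was made from unsorted tissue of SoxC double knockout embryos (2 libraries) and wildtype embryos (3 libraries). The ATAC labels named neither the strain, the deleted genes, the Cre driver nor the number of embryos pooled, and the titles said whole organ where the protocol said epithelia. A Pax2cre SoxC fl/fl strain was named only for the single-cell knockout sample, which was not used here, as was its wildtype counterpart of a p27GFP strain. Sox4 was profiled by CUT&RUN, in which an antibody directs a nuclease to the bound DNA, with a guinea pig anti-Sox4 antibody in 3 replicates of GFP-positive progenitors sorted from p27kip1-GFP wildtype embryos. Nothing said whether replicates came from separate litters, so the tests below measure the spread between these libraries.

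SWI/SNF, ISWI and CHD proteins use ATP to slide, evict or space nucleosomes. PRC2 methylates histone H3 and PRC1 ubiquitinates histone H2A at silenced developmental genes, while MLL-family methyltransferases, acetyltransferases and demethylases act mostly at active promoters and enhancers. In the cochlear duct at this age sensory progenitors stop dividing under the cell cycle inhibitor p27Kip1, and SoxC factors are HMG-box activators of progenitor and neuronal programmes that bind short A/T-rich motifs.

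The deposited lists gave peaks with a strength but no read counts, so depth was unknown and libraries were compared by rank, where rank 1 is the strongest peak of a library. The 50000 strongest autosomal peaks of each library were used. The last of them had a -log10 p of 104 and 50.5 in the knockout libraries and of 19.0, 10.5 and 8.75 in the wildtype libraries, and the median width of the kept peaks was 699 and 615 bp in knockout against 499, 437 and 443 bp in wildtype. Among the ATAC lists, those of the knockout alone stated a p threshold and a cap in their names, so genotype and list processing cannot be told apart. Among 8 markers of the duct epithelium, 7 had an open gene end in both knockout libraries and 7 in all 3 wildtype libraries. Of 4 mesenchyme markers 2 and 2 were open in this way, of 3 neuronal markers 2 and 2, of 2 glial markers 2 and 1, and of 3 markers of blood and endothelium none. Some markers stood apart by genotype in their kept gene-end ranks. The mesenchyme marker Tbx18 had 39488 and 30877 in knockout and 12895, 5853 and 8806 in wildtype, and the neuronal marker Pou4f1 had 18926 and 17724 in knockout and 3425, 3841 and 2503 in wildtype. The glial marker Sox10 had 14274 and 13351 in knockout and 24303 and 39802 in wildtype, with none in wildtype replicate 3. Gata3, of the epithelial list, had no kept peak in knockout and 12639, 25289 and 23159 in wildtype. Markers of other cell types thus moved with genotype in unsorted tissue, and their part in the results was not tested.

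Promoter sequences were available for 36 of the 46 genes, as 44 RefSeq windows of 300 bases (250 before and 50 after an annotated start, mm10). Of these, 7 windows are printed here. Rnf2 had the largest fall in rank over a promoter in the knockout, and Hdac4 the largest rise. Ezh2 and Smarca5 had gene ends that ranked lower in the knockout and a Sox4 window of 1 replicate over the promoter. At Arid1a, Chd8 and Hdac2 a Sox4 site overlapped the promoter. Other promoters that ranked lower, among them that of Bmi1, were left out. These 7 windows were thus chosen partly on Sox4 signal. They lie at chr1:151500942-151501241, minus strand (Rnf2), chr6:47594981-47595280, minus strand (Ezh2), chr8:80739410-80739709, minus strand (Smarca5), chr1:92180292-92180591, minus strand (Hdac4), chr4:133756720-133757019, minus strand (Arid1a), chr14:52257711-52258010, minus strand (Chd8) and chr10:36974294-36974593, plus strand (Hdac2). Each is written 5′ to 3′ along its gene. Capitals mark GGGCGG or its complement CCGCCC, a GC box, and the short motifs of Sox-type HMG boxes, ACAAAG with CTTTGT and ACAAT with ATTGT.
Rnf2: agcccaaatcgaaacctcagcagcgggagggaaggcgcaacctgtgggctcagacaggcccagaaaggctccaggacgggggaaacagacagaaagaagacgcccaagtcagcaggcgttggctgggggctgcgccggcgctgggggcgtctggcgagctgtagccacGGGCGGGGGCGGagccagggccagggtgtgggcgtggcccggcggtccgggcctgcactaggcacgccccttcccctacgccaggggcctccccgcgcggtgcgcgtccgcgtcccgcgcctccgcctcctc
Ezh2: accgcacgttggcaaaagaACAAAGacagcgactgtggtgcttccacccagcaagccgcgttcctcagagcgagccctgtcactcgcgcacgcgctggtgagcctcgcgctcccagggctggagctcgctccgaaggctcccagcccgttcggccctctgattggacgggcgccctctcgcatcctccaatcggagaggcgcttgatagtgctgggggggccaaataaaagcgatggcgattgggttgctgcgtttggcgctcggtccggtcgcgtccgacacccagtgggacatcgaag
Smarca5: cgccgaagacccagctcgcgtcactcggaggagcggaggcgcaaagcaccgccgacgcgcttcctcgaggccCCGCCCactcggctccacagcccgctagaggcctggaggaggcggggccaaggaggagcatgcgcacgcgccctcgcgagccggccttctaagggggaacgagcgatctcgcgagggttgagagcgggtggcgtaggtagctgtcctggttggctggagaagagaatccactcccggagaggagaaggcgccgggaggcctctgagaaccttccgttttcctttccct
Hdac4: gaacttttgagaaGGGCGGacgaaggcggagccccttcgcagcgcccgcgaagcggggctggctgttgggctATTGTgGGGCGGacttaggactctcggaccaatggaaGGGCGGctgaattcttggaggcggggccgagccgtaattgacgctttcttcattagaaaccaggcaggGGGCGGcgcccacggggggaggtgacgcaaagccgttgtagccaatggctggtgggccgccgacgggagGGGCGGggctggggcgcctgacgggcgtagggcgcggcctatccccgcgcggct
Arid1a: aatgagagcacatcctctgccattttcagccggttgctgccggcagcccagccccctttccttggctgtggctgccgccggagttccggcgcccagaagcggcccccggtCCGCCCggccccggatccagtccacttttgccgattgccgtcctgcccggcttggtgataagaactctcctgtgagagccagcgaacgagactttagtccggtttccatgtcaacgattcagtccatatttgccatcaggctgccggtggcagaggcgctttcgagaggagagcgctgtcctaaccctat
Chd8: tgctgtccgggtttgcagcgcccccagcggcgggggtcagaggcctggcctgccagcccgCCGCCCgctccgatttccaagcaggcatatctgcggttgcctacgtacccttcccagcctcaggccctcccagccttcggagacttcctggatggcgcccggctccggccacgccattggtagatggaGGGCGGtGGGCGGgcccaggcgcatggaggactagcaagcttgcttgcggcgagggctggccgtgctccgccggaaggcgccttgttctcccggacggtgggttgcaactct
Hdac2: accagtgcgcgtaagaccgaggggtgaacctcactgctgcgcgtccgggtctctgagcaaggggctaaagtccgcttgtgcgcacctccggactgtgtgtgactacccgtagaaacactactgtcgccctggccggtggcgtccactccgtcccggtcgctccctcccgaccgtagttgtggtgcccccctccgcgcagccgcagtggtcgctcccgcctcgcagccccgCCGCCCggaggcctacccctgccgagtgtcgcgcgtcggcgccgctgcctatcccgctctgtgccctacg
A GC box stood in 36 of the 44 windows (81.8%), against 36.0% of all 31396 promoter windows of the same length. ACAAAG stood in 5 (11.4%, against 18.6% of all) and ACAAT in 6 (13.6%, against 30.4%). The median window of the listed genes held 30 CpG and 68.8% G and C, against 7 CpG and 53% over all windows. None of the 3 windows overlapped by a Sox4 site held ACAAAG or ACAAT, while the Ezh2 window held 1 ACAAAG and the Hdac4 window 1 ACAAT. The Hdac2 site ended at position 36974329 and so covered only the first bases of its window. Both strands were searched, neither Sox motif contains the other, and a match here is a description of the sequence.

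The gene ends of this list were mostly open in both genotypes. A gene-end region was present in all 5 libraries at 36 of the 46 genes (78.3%), against 53.3% of the 20665 autosomal coding genes, and in any library at 40 of them (87.0%, against 65.2%). These counts took any region within 1 kb of an end, including those at Arid2 and Kmt2d that lay nearer to an abutting gene. The ranks at these ends were moderate. The 36 gene-end regions shared by all libraries had median ranks, among the 28316 regions shared by all 5 libraries, of 10663.5 and 10820.5 in knockout and 9426, 10782.5 and 10495 in wildtype. All 10170 shared gene-end regions had medians of 7841 and 7779.5 in knockout and 8091.5, 8999 and 9138.5 in wildtype, so the listed genes lay further down in every library. The distal shared regions (69) had medians of 16177 and 15649 in knockout and 16597, 17640 and 13442 in wildtype. All 15985 distal shared regions had medians of 16909 and 16973 in knockout and 17331, 17067 and 17143 in wildtype, so the listed genes lay higher in knockout replicates 1 and 2 and wildtype replicates 1 and 3, and lower in wildtype replicate 2.

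**Figure D1:**
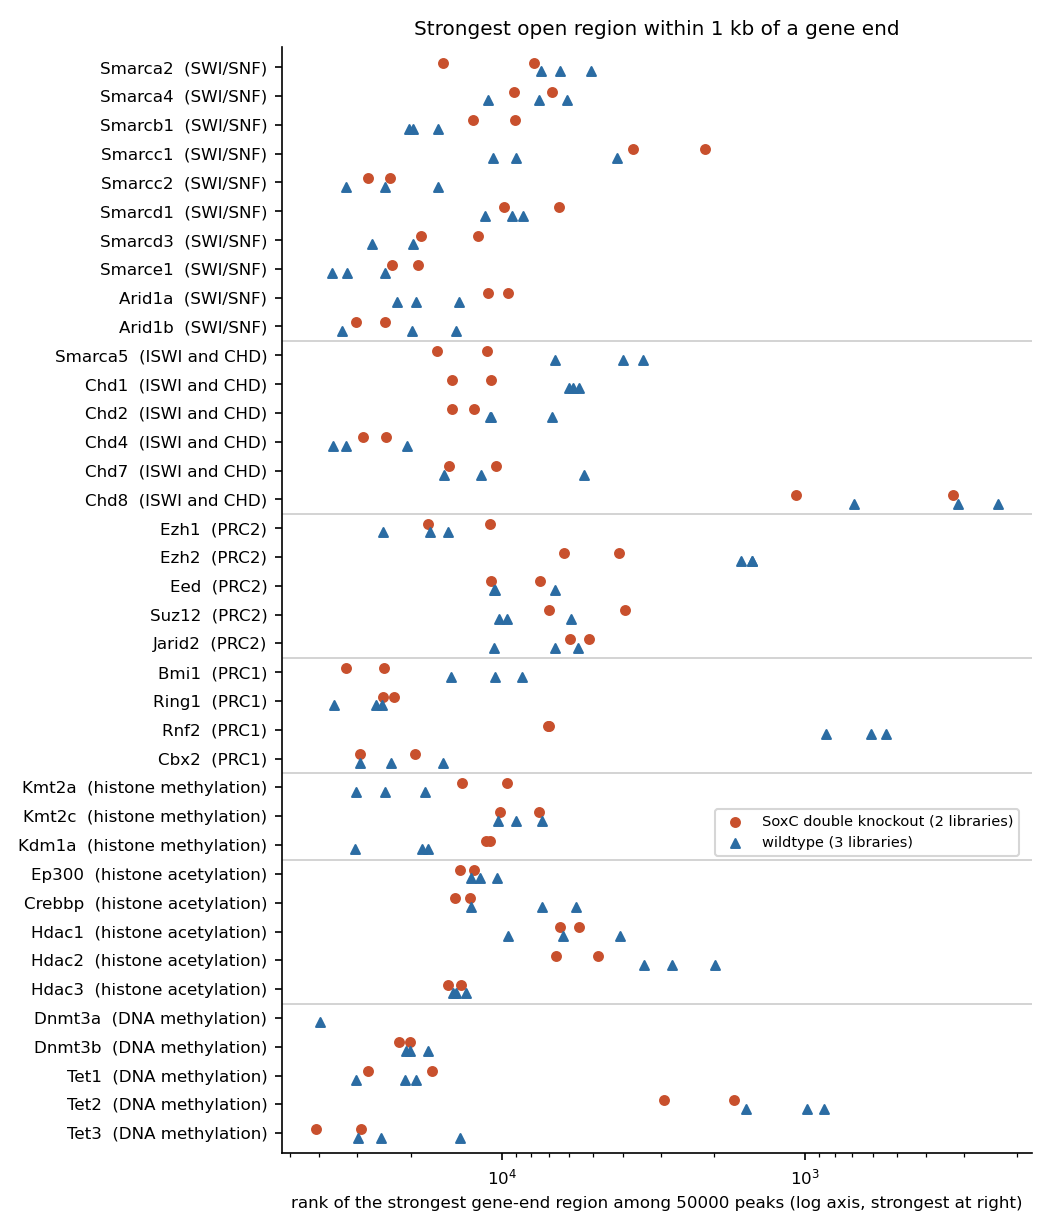
Rank of the strongest gene-end region of each listed gene in the 2 SoxC double knockout libraries (circles) and the 3 wildtype libraries (triangles), on a log axis with the strongest peaks at the right. Genes are ordered by role, and points beyond rank 50000 are not drawn. For Rnf2 and Ezh2 both knockout points lie well to the left of the 3 wildtype points, and for Chd8, with the strongest gene end, the groups overlap.

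Chd8, Rnf2 and Tet2 had the strongest gene ends in wildtype. The Chd8 gene end ranked 1071 and 327 in the knockout lists and 315, 232 and 690 in the wildtype lists, and the groups overlapped. The weakest was that of Dnmt3a, whose far end held a kept peak in wildtype replicate 1 alone, at rank 39746, although a region over an inner Dnmt3a promoter had full-list ranks of 49380 and 53133 in knockout and 21232, 15274 and 21400 in wildtype. Of 8 genes with no gene-end region assigned to them, several started elsewhere: regions over an inner annotated promoter of Dnmt1, Hdac4, Hdac9 and Cbx7 counted as distal because they lay more than 1 kb from the ends of the gene. The other four were Arid2, Chd3, Kmt2d and Kdm6b. Arid2 had no region at all by this rule, since the open region at its end, at chr15:96286506-96287026 with list ranks of 12148 and 14780 in knockout and 10356, 22129 and 14588 in wildtype, lay nearer to the abutting gene Gm38469.

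The number of regions per gene varied widely. Hdac9, a gene of 869.5 kb, had 32, Arid1b 20, Chd2 and Chd7 14 each, and Jarid2 and Dnmt3a 12 each. Smarcb1, Chd4, Suz12, Ring1 and Kmt2d had 1 each. Of the 32 regions of Hdac9, 31 lay inside the gene, and of the 9 regions of Eed, 1 of the 8 distal ones did.

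**Figure D2:**
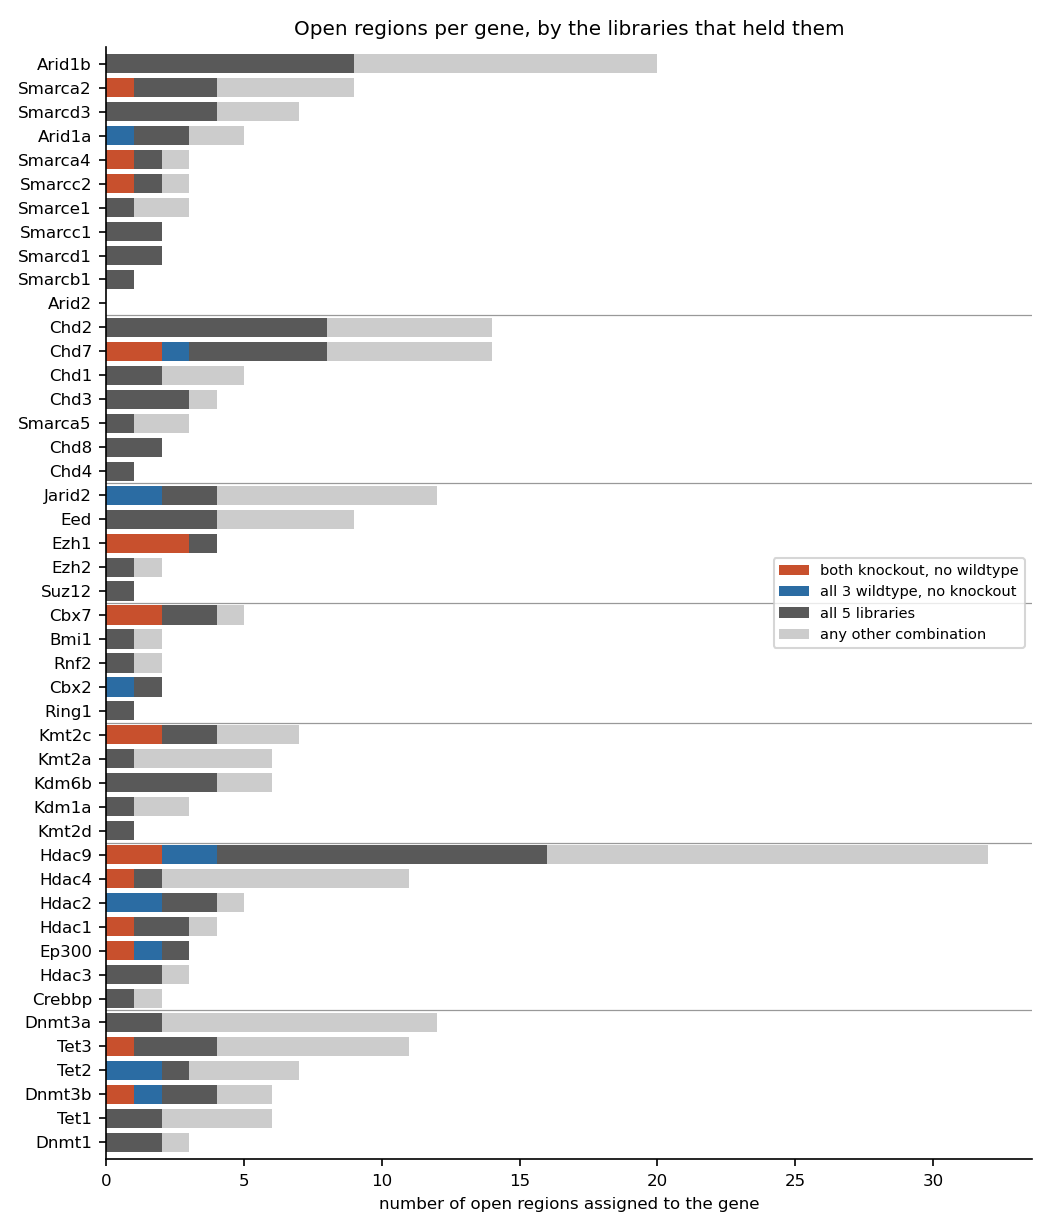
Number of open regions assigned to each listed gene, grouped by role from SWI/SNF at the top to DNA methylation at the bottom. Colours give the libraries that held the region: both knockout and no wildtype library, all 3 wildtype and no knockout library, all 5, or any other combination. Hdac9 has the longest bar with 32 regions, and Arid2 has none.

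Of the 266 regions, 105 were open in all 5 libraries (39.5%, background 39.0%), 19 in both knockout and no wildtype library (7.14%, background 8.48%) and 13 in all 3 wildtype and no knockout library (4.89%, background 5.79%). The background is the share among all 67113 regions near coding genes. All 3 shares of the listed genes were near it. At gene ends 36 of 58 regions were shared (62.1%, background 67.6%), and among distal regions 69 of 208 were shared (33.2%, background 30.7%), 19 were in the knockout lists alone (9.13%, background 9.83%) and 8 in the wildtype lists alone (3.85%, background 6.38%). The other 129 regions were in some other combination of libraries.

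Strength was compared at the shared regions as the shift in -log2 of the rank between knockout and wildtype, fitted with limma over all 28316 shared regions. A shift of 1 is a factor of 2 in rank, and a negative shift means a lower place in the knockout. Percentages of all shared regions, given as background here and below, are taken among the 26155 within 100 kb of a coding gene. Counts over all shared regions use all 28316. Of the 105 shared regions, 13 ranked higher in the knockout (12.4%, background 16.0%) and 13 lower (12.4%, background 12.5%) at an adjusted p under 0.05, 26 in all (24.8%, background 28.5%). At gene ends 3 ranked higher (8.33%, background 18.9%) and 5 lower (13.9%, background 13.4%), and among distal regions 10 ranked higher (14.5%, background 14.2%) and 8 lower (11.6%, background 12.0%). The 26 regions belonged to 20 genes, of which 10 had regions that ranked higher, 8 had regions that ranked lower and 2, Hdac9 and Eed, had both. In 27 regions both knockout ranks were stronger than all 3 wildtype ranks (25.7%, background 30.3%) and in 27 both were weaker (25.7%, background 26.6%). A lower rank in unsorted tissue can come from fewer cells with the region open or from less opening per cell, which cannot be told apart. Few calls held when a library was left out: 4 of the 26, at Rnf2, Eed (3.2 kb), Kdm6b and Dnmt3b (18.5 kb), kept an adjusted p under 0.05 in limma whichever library was left out. Leaving out a knockout library sets 1 library against 3, and calls then fell over all shared regions too. Whether the loss was larger at the listed genes was not tested. Without wildtype replicates 1, 2 and 3, 22, 14 and 20 of the 26 calls were kept. With newly called regions counted as well, the listed genes had 11 regions higher and 13 lower, 4 and 11, and 10 and 14. Totals of the same kind over all shared regions were 4332 called higher and 3771 lower with every library in. Without wildtype replicates 1, 2 and 3 these were 4520 and 4406, 2490 and 2755, and 3652 and 3817.

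**Figure D3:**
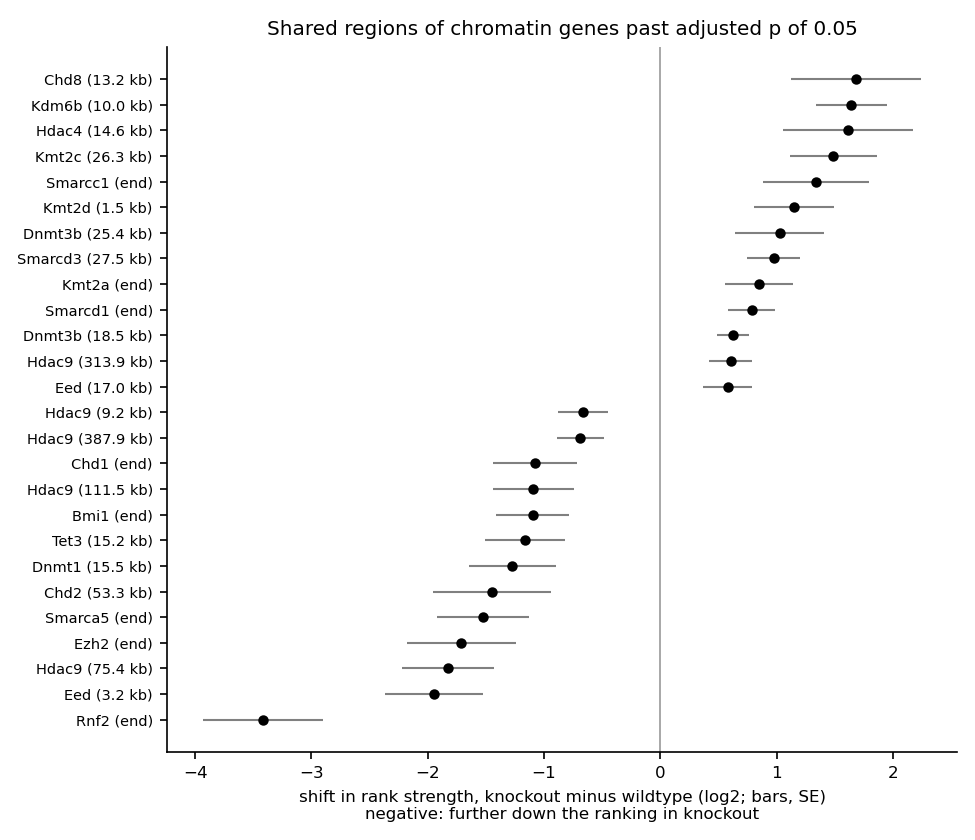
Shift in rank strength, knockout minus wildtype on the log2 scale, of the 26 shared regions with an adjusted p under 0.05, with standard errors as bars. Distances in brackets are to the nearer end of the gene. The region at the Rnf2 gene end lies furthest out, at -3.42, and the Chd8 region 13.2 kb inside the gene furthest on the other side, at 1.68.

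SWI/SNF genes had 55 regions, of which 26 were shared. In this group 3 shared regions ranked higher in the knockout (11.5%, against 16.0% of all shared regions), none ranked lower (against 12.5%), and 23 did not pass the test. The gene end of Smarcc1, which codes for the BAF155 core subunit, ranked 3675 and 2137 in knockout and 4127, 10117 and 8506 in wildtype. The groups did not overlap, with knockout replicate 1 close to wildtype replicate 1, and the shift was 1.34 ± 0.46 (SE, adjusted p = 0.0347 in limma). This call was lost without either knockout library or without wildtype replicate 2 or 3, with adjusted p up to 0.266. With ranks by fold enrichment the shift was 0.77 (adjusted p = 0.464 in limma). A region 27.5 kb upstream of Smarcd3, the subunit known from heart and muscle SWI/SNF complexes, ranked 12725 and 11901 in knockout and 20913, 28055 and 24131 in wildtype (shift 0.98 ± 0.23, adjusted p = 0.00507 in limma). Both knockout values were stronger than all wildtype values, and without wildtype replicate 2 the adjusted p was 0.0542. With ranks by fold enrichment the shift was 2.26. A region just past the far end of Smarcd1 shifted by 0.78 ± 0.20 (adjusted p = 0.00772 in limma, 0.0873 without knockout replicate 1 and 0.0611 without wildtype replicate 2), and by 1.78 with ranks by fold enrichment.

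The catalytic subunits did not pass. Smarca4, the BRG1 ATPase, had a gene end at 8864 and 6769 in knockout and 7429, 10539 and 5922 in wildtype, with overlapping groups and a shift of -0.0011 ± 0.38. Smarca2, the alternative ATPase BRM, had 14287 and 7760 in knockout and 6328, 4987 and 7157 in wildtype (shift -0.79 ± 0.39, adjusted p = 0.129 in limma). Arid1a, a DNA-binding subunit of the BAF form, had 9252 and 10784 in knockout and 19691, 12900 and 16784 in wildtype (shift 0.70 ± 0.32, adjusted p = 0.106 in limma), so that both knockout values were stronger than all wildtype values without passing the test. Its paralogue Arid1b had 20 regions, 9 of them shared, and none was called.

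Of the ISWI and CHD genes, 3 shared regions out of 22 ranked lower in the knockout (13.6%, against 12.5% of all shared regions) and 1 higher (4.55%, against 16.0%). Smarca5, the ISWI ATPase SNF2H, had its gene end at chr8:80739443-80739958, over the promoter printed above, with ranks of 14830 and 10857 in knockout and 3394, 3934 and 6447 in wildtype. No values overlapped, and the shift was -1.52 ± 0.40 (adjusted p = 0.00891 in limma, 0.159 without knockout replicate 1). The gene end of Chd1, a remodeller recruited to active promoters, ranked 13495 and 10592 in knockout and 5920, 5429 and 5647 in wildtype (shift -1.08 ± 0.36, adjusted p = 0.0310 in limma). It was lost without either knockout library (0.296 and 0.0965) or without wildtype replicate 2 (0.0761). A region 53.3 kb beyond Chd2 ranked 4494 and 4173 in knockout and 935, 1693 and 2520 in wildtype (shift -1.45 ± 0.51, adjusted p = 0.0401 in limma). Its call was lost without either knockout library or without wildtype replicate 1 or 2, with adjusted p between 0.0923 and 0.197, and by fold enrichment the shift was -3.08.

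Chd8, a CHD remodeller whose loss in people is linked to autism, had a strong region 13.2 kb inside the gene, at chr14:52244291-52244811. It ranked 1167 and 462 in knockout and 2342, 2552 and 2199 in wildtype, a shift of 1.68 ± 0.56 (adjusted p = 0.0305 in limma) with no overlap. Ranked by fold enrichment instead of -log10 p, the same region had a shift of -1.11 (adjusted p = 0.443), and the call was also lost without knockout replicate 2 or without any wildtype library (0.0620 to 0.257). Chd7, which is mutated in people with CHARGE syndrome with its inner ear malformations, had 14 regions. Its gene end ranked 13741 and 10210 in knockout and 5284, 11026 and 14025 in wildtype, and the groups overlapped (shift -0.34 ± 0.40). Chd3 and Chd4, remodellers of the NuRD complex, had 4 regions and 1, none of them called.

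PRC2 genes had 9 shared regions, with 2 lower in the knockout (22.2%, against 12.5% of all shared regions) and 1 higher (11.1%, against 16.0%). Ezh2, the main histone methyltransferase of the complex, had its gene end at chr6:47594858-47595383, ranked 6165 and 4098 in knockout and 1625, 1491 and 1493 in wildtype. The 3 wildtype values lay close together and far from both knockout values. The shift was -1.71 ± 0.47 (adjusted p = 0.0114 in limma, 0.158 without knockout replicate 1). Eed, the subunit that reads the methyl mark, had a region 3.2 kb upstream of its start, at chr7:89984129-89984664, with ranks of 23075 and 24157 in knockout and 12364, 4725 and 3942 in wildtype. The groups did not overlap, with wildtype replicate 1 the weakest of the wildtype. This shift of -1.95 ± 0.42 (adjusted p = 0.00315 in limma) kept an adjusted p under 0.05 in each of the 10 alternative settings that held the region.

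The gene end of Eed itself ranked 10474 and 7383 in knockout and 6603, 10079 and 9881 in wildtype, with overlapping groups and a shift of -0.02 ± 0.37 that did not pass. A region 17.0 kb upstream went the other way, with 15281 and 15216 in knockout and 23617, 19532 and 25614 in wildtype (shift 0.58 ± 0.21, adjusted p = 0.0471 in limma), but was lost when any of the 5 libraries was left out (0.0537 to 0.184). Its shift was 2.27 with ranks by fold enrichment. Jarid2, a PRC2 cofactor, had its strongest gene-end region at 5129 and 5941 in knockout and 5531, 6482 and 9988 in wildtype, again with overlapping groups (shift 0.36 ± 0.39). Suz12, a core subunit, had 1 region, at its gene end, ranked 3915 and 6907 in knockout and 5864, 9735 and 9073 in wildtype (shift 0.63 ± 0.40, adjusted p = 0.247 in limma). Ezh1, the second methyltransferase, had an overlapping gene end (10532 and 16213 in knockout, 14246, 20511 and 15332 in wildtype) but 3 regions inside the gene that were kept in both knockout lists alone. In the full lists they ranked 26503 and 31325, 20315 and 21553, and 33366 and 27454 in knockout replicates 1 and 2. In wildtype the best of them had 52483, and the third was in 2 of the 3 wildtype lists, at 99868 and 96271.

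PRC1 genes had 6 shared regions, 2 of them lower in the knockout (33.3%, against 12.5% of all shared regions) and none higher (against 16.0%), and held the largest shift of the list. Rnf2, the RING1B ubiquitin ligase of the complex, had its gene end at chr1:151500599-151501261, over the promoter printed above, ranked 6888 and 6988 in knockout and 601, 853 and 536 in wildtype. The knockout values were almost equal and lay 10.7-fold further down the ranking (geometric means), a shift of -3.42 ± 0.51 (adjusted p = 0.000363 in limma). The region was nevertheless open in all 5 lists, with -log10 p of 537 and 342 in knockout and 339, 188 and 167 in wildtype, values that cannot be compared between libraries of unknown depth. In all 12 alternative settings the adjusted p stayed under 0.05, with shifts between -3.28 and -3.61 on the log2 rank scale. Its paralogue Ring1 had 19068 and 20791 in knockout and 21404, 25506 and 20985 in wildtype (shift 0.18 ± 0.17), which did not pass.

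Bmi1, a PRC1 core subunit needed for progenitor self-renewal in several tissues, had a gene end ranked 23908 and 20754 in knockout and 8371, 13568 and 9909 in wildtype. All 3 wildtype values were stronger, and the shift was -1.10 ± 0.31 (adjusted p = 0.0148 in limma), lost without either knockout library (0.233 and 0.0989). Cbx2, a chromodomain subunit, had overlapping values at its gene end (22591 and 17525 in knockout, 14794, 23048 and 19312 in wildtype). Cbx7, another chromodomain subunit, had 5 regions inside the gene, of which 2 were kept in the knockout lists alone.

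For the writers and erasers of histone methylation, 4 of 9 shared regions ranked higher in the knockout (44.4%, against 16.0% of all shared regions) and none lower (against 12.5%), 1 each at Kmt2a, Kmt2c, Kmt2d and Kdm6b. Kdm6b, a demethylase that removes the Polycomb mark, had a region inside the gene at chr11:69408475-69409029, ranked 6137 and 8189 in knockout and 19151, 23271 and 24364 in wildtype. The groups were far apart, with a shift of 1.64 ± 0.31 (adjusted p = 0.00127 in limma). This held when any 1 library was left out, but with ranks by fold enrichment the shift was 0.03 (adjusted p = 0.891). Kmt2c, an enhancer methyltransferase of the MLL family, had a region 26.3 kb inside the gene ranked 3504 and 4950 in knockout and 8814, 14182 and 12744 in wildtype. The shift was 1.49 ± 0.38 (adjusted p = 0.00763 in limma, 0.139 without knockout replicate 1), and 3.60 with ranks by fold enrichment.

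Its relative Kmt2d had 1 region, 1.5 kb inside the start, at 7646 and 7726 in knockout and 14737, 24440 and 13708 in wildtype (shift 1.15 ± 0.34, adjusted p = 0.0185 in limma). Kmt2a, the MLL1 methyltransferase, had its gene end at 9349 and 12928 in knockout and 16617, 20303 and 23019 in wildtype (shift 0.85 ± 0.29, adjusted p = 0.0346 in limma). In both genes every knockout value was stronger than every wildtype value. Both calls were lost without either knockout library or without wildtype replicate 2, with adjusted p between 0.0671 and 0.292, and Kmt2a also without wildtype replicate 3 (0.109). With ranks by fold enrichment both shifts turned just below 0, at -0.06 for Kmt2d and -0.07 for Kmt2a. Kdm1a, the LSD1 demethylase, had 10795 and 10637 in knockout and 16290, 23467 and 16094 in wildtype (shift 0.77 ± 0.30, adjusted p = 0.0593 in limma), just short of the threshold.

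Histone acetylation genes had 60 regions, 32 of them at Hdac9. Among 21 shared regions 2 ranked higher in the knockout (9.52%, against 16.0% of all shared regions) and 4 lower (19.0%, against 12.5%). All of these lay at the class IIa deacetylases Hdac4 and Hdac9, signal-responsive corepressors, which held 1 and 12 of the 21 shared regions. Hdac4 had a region over an inner promoter, at chr1:92180232-92181132, that was among the strongest of the list, with 670 and 552 in knockout and 1501, 1784 and 2409 in wildtype. The groups did not overlap, and the shift was 1.61 ± 0.56 (adjusted p = 0.0383 in limma). By fold enrichment it was -1.02 (adjusted p = 0.119), and the call was also lost without either knockout library or without wildtype replicate 2 or 3 (0.104 to 0.129).

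The lower regions were all in Hdac9. The furthest shift was 75.4 kb inside the gene, at 16079 and 16207 in knockout and 7270, 3954 and 3283 in wildtype (shift -1.83 ± 0.40, adjusted p = 0.00314 in limma, 0.0521 without knockout replicate 1). With ranks by fold enrichment it was -1.40 (adjusted p = 0.105 in limma). The others lay 111.5, 387.9 and 9.2 kb from an end, with shifts of -1.09, -0.69 and -0.66, and each was lost without either knockout library (adjusted p 0.112 to 0.314). By fold enrichment the shifts at 111.5 and 387.9 kb were -0.70 and -0.52 (adjusted p = 0.211 and 0.110 in limma). Another called Hdac9 region, 313.9 kb from an end, had a shift of 0.61 ± 0.18 (adjusted p = 0.0205 in limma), lost without any of 4 libraries (0.0660 to 0.0935) and kept without wildtype replicate 3. By fold enrichment its shift was 1.66. The acetyltransferases did not pass at their gene ends. Crebbp had 13240 and 12294 in knockout and 5618, 7130 and 11654 in wildtype (shift -0.72 ± 0.37, adjusted p = 0.154 in limma), and Ep300 had 11698 and 13131 in knockout and 10087, 11847 and 11002 in wildtype (shift -0.18 ± 0.33). Hdac2, a class I deacetylase of the NuRD and Sin3 complexes, had a gene end at 6510 and 4798 in knockout and 3363, 1963 and 2722 in wildtype, without overlap, and a shift of -1.09 ± 0.44 (adjusted p = 0.0687 in limma).

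DNA methylation genes had 12 shared regions, with 2 higher in the knockout and 2 lower (16.7% each, against 16.0% and 12.5% of all shared regions). Both higher regions were near Dnmt3b, a de novo methyltransferase. The one inside the gene, 18.5 kb from its far end, ranked 17840 and 18636 in knockout and 28207, 27818 and 28194 in wildtype. The shift was 0.62 ± 0.14 (adjusted p = 0.00320 in limma). It held when any 1 library was left out and had an adjusted p of 0.0584 when limma was run without a trend. The shift was 0.99 with 100000 peaks and 2.56 with ranks by fold enrichment. In the kept lists the wildtype peaks of this region ranked 48821, 46368 and 49295. They thus lay near the end of the kept lists and of the 28316 shared ranks, which leaves little room for spread. The other, 25.4 kb past the gene, had a shift of 1.02 ± 0.38 (adjusted p = 0.0499 in limma), and leaving out any library other than wildtype replicate 1 took it to between 0.0944 and 0.362. By fold enrichment the shift was 0.34 (adjusted p = 0.680 in limma), and the call was also lost without a trend (0.0734), on the logit scale (0.0619) and with 100000 peaks (0.0530).

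The 2 lower regions were at Dnmt1, the maintenance methyltransferase, and Tet3, an enzyme that oxidises methylcytosine. The Dnmt1 region, 15.5 kb inside the gene, ranked 16442 and 19824 in knockout and 4860, 7955 and 10795 in wildtype (shift -1.27 ± 0.38, adjusted p = 0.0171 in limma). The Tet3 region, over an inner promoter, ranked 16048 and 17078 in knockout and 5893, 8577 and 7934 in wildtype (shift -1.17 ± 0.34, adjusted p = 0.0173 in limma). The groups did not overlap at either, and both calls were lost without either knockout library (0.118 and 0.156 for Dnmt1, 0.155 and 0.135 for Tet3). By fold enrichment the Dnmt1 shift was -1.99. The strong gene end of Tet2 had 2913 and 1714 in knockout and 1556, 862 and 980 in wildtype (shift -1.03 ± 0.55, adjusted p = 0.165 in limma).

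The 19 regions kept in both knockout lists and no wildtype list belonged to 13 genes. All were distal, 13 inside the gene, so that no gene end was of this kind (0.00%, against 3.80% of all gene-end regions). The strongest was 70.6 kb beyond Chd7, at 16347 and 12837 in the knockout lists and at 70073, 69575 and 77720 in the full wildtype lists. The same knockout peaks reached into an adjoining region, chr4:8939558-8940131, which held kept peaks of wildtype replicates 1 and 2 at 47776 and 46925, so its class rests on where the summits were placed. In 9 of the 19 a weaker peak stood in all 3 full wildtype lists, in 8 in some of them, and in 2, a region 1.8 kb beyond Hdac1 and another 44.7 kb inside Smarca2, in none. These 2 were near the end of the kept range, with 48811 and 34441 at Hdac1 and 43652 and 48814 at Smarca2 in the knockout lists. No wildtype peak over any of the 19 ranked better than 52483. The count was 33 without knockout replicate 1 and 37 without knockout replicate 2. Over all regions the 6062 of this class were 8443 and 9340 in these settings.

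Of the 13 regions kept in all 3 wildtype lists and no knockout list, 5 lay at the gene ends of Arid1a, Cbx2, Dnmt3b, Ep300 and Jarid2 (8.62% of gene-end regions, background 3.77%). All 5 were covered by a broader kept knockout peak whose summit lay elsewhere. At Jarid2 the covering knockout peaks ranked 5185 and 5993 and the wildtype peaks 17059, 15174 and 21804. This group therefore rests on where the summit was placed, and with full peak extents in place of windows the count of 13 became 8. Over all regions the count of 4992 became 4628.

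The 8 distal regions of this class lay near Tet2, Chd7, Hdac2, Hdac9 and Jarid2. A region 55.7 kb upstream of Hdac2, at chr10:36918037-36918557, had no peak in either full knockout list and ranked 19848, 12565 and 11411 in wildtype. It was the only region of the 13 without any knockout peak. A second Hdac2 region, 36.9 kb upstream, had 53771 and 52112 in the full knockout lists and 33451, 10088 and 11949 in wildtype, just past the limit in both knockout libraries. Near Tet2, a region 4.6 kb upstream had 124088 and 149935 in knockout and 49766, 36981 and 36015 in wildtype, and another 34.0 kb upstream had 74039 and 67770 in knockout and 35506, 33351 and 28126 in wildtype. A region inside Chd7 had 57712 and 60938 in knockout and 25423, 26492 and 23088 in wildtype. The order of the genotypes in all of these follows from how the class was chosen.

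**Figure D4:**
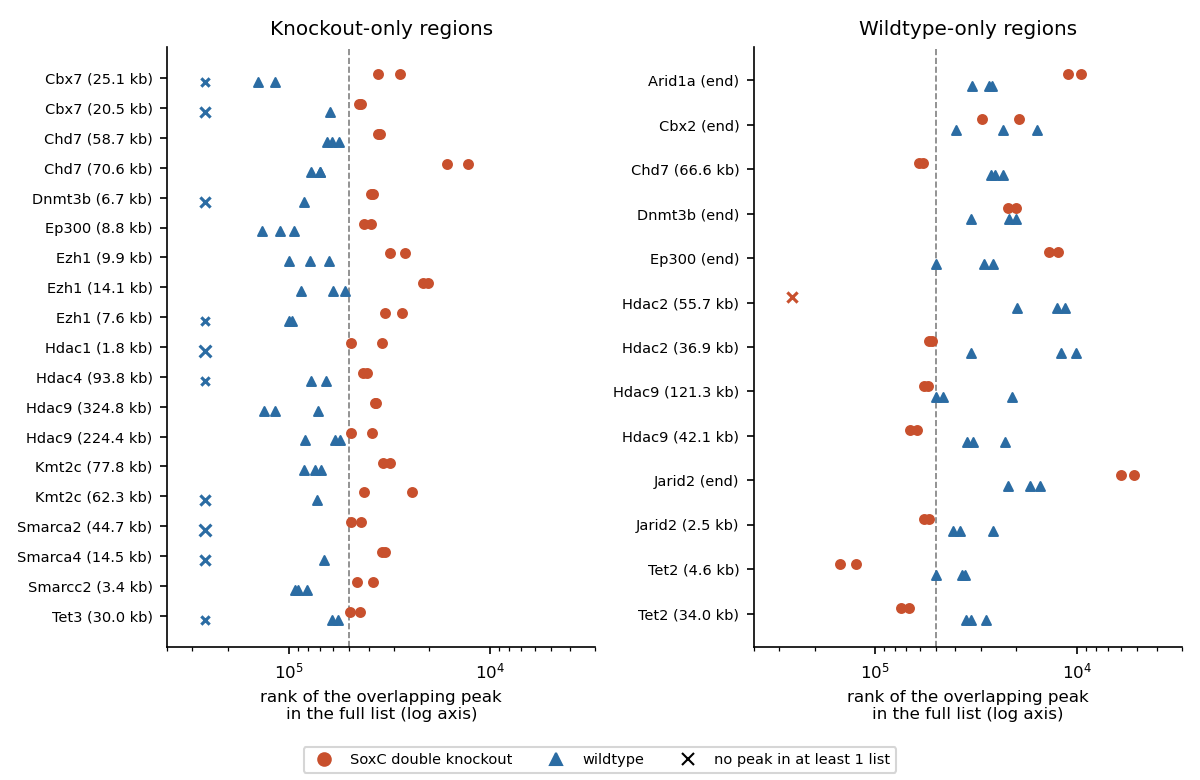
Ranks in the full peak lists, on log axes with the strongest at the right, of the 19 regions kept in both knockout and no wildtype list (left) and the 13 kept in all 3 wildtype and no knockout list (right), with the distance to the gene end in brackets. The dashed line is rank 50000, the limit of the kept lists, and a cross marks a region with no peak in at least 1 list of that genotype (a larger cross where more lists lack it). At the 5 gene ends in the right plot the knockout circles lie inside the limit.

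Sox4 sites, defined as windows among the 20000 strongest peaks of at least 2 of the 3 replicates, overlapped 6 of the 266 regions (2.26%, background 1.62%), 3 of them at gene ends (5.17%, background 4.37%) and 3 distal (1.44%, background 0.828%). By gene, 3 of 46 had a site at a gene-end region (6.52%, against 3.88% of coding genes). The shares were near the background. Of 1706 sites in all, 1467 lay within 100 kb of a coding gene, and 8 of these had a listed gene as the nearest. The listed genes held 266 of the 67113 open regions near coding genes. No control antibody list was used, so the sites were not set against a background signal.

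The Jarid2 site stood apart. It lay inside the gene, 51.6 kb from its far end, at chr13:44869445-44870022, and ranked 110, 18 and 30 in the 3 Sox4 replicates, where no other of the 8 sites was in all 3. A further deposited list of replicate 1 placed it at 131. In ATAC the place was weak, with ranks of 46527 and 52593 in the full knockout lists and no peak in any wildtype list. Jarid2 recruits PRC2 to its targets and takes part in heart and neural development.

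At promoters, the Arid1a site ranked 395 and 5047 in replicates 2 and 3, the Chd8 site 771 and 7660 in the same replicates, and the Hdac2 site 14106 and 2055 in replicates 1 and 3. The Chd8 site coincided with the strongest gene end of the list, and none of the 3 gene ends had a called rank shift. In Kdm6b a site 2.2 kb inside the gene ranked 17943 and 411 in replicates 2 and 3. Arid1b held 2 sites, both weak, of which 1 lay in a region open in all 5 libraries (19374 and 18799 in replicates 1 and 3) and the other had no ATAC peak (14371 and 14083 in replicates 2 and 3). The last, 16.5 kb outside Chd1, ranked 19442 and 855 in replicates 1 and 3.

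In Sox4 replicate 1, 16258 peaks were tied at the last kept value, ranks 12525 to 28782, and the support of Hdac2, Chd1 and 1 Arid1b site from that replicate lay within the tie. The count of 6 regions was 4 with tied peaks left out, 3 without Sox4 replicate 2 and 1 without Sox4 replicate 3. Over all regions the count of 1181 was 1129, 636 and 575 in these settings. Windows of a single replicate lay at further gene ends, among them Ezh2 (6697 in replicate 1), Smarca5 (1119 in replicate 3 and 11509 in replicate 1), Smarca4 (4804 in replicate 1) and Jarid2 (1058 in replicate 3).

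**Figure D5:**
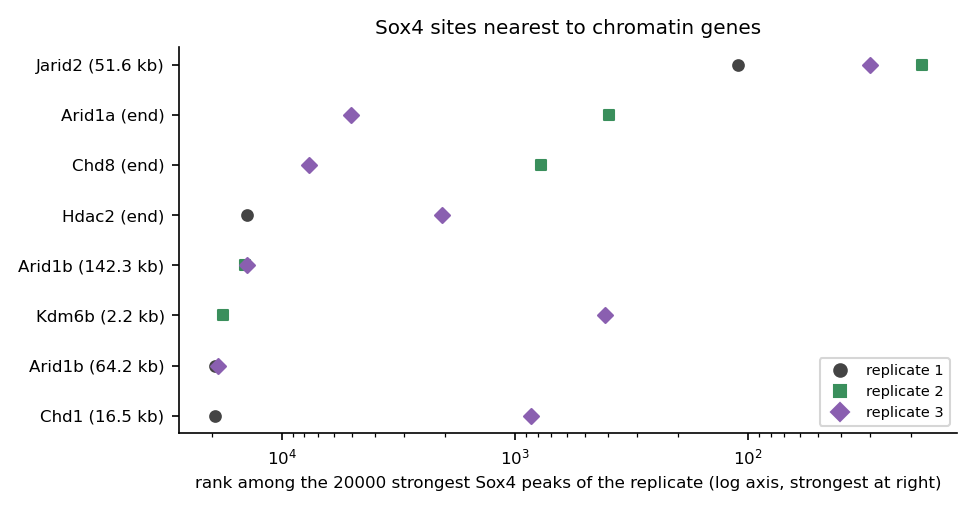
Rank of the 8 Sox4 sites nearest to listed genes among the 20000 strongest peaks of each Sox4 replicate, on a log axis with the strongest at the right. A site missing from a replicate has no symbol for it. The Jarid2 site is at the far right in all 3 replicates (110, 18 and 30), and the other 7 sites have 2 symbols each.

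A further 103 genes were counted in the same way. They were partner subunits of these complexes together with other chromatin and DNA methylation genes, such as Ino80, Setd2 and Tdg. Of these, 99 had a region and 82 a gene end open in all 5 libraries, with 421 regions in all. Among their 179 shared regions 37 ranked higher in the knockout and 11 lower in limma (20.7% and 6.15%, against 16.0% and 12.5% of all shared regions near coding genes). Their median shift was 0.25, against 0.03 for the 46 listed genes and 0.00 over all shared regions. They had 43 regions kept in the knockout lists alone (10.2%, background 8.48%), 18 kept in the wildtype lists alone (4.28%, background 5.79%) and 21 with a Sox4 site (4.99%, background 1.62%).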

How the data were processed

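Peak lists of 5 ATAC-seq and 3 Sox4 CUT&RUN libraries were analysed. Per the submitters' processing notes, the tools were MACS2, STAR, deepTools and UMI-tools (the last for Sox4), and mm10 and GRCm38 were the builds; no versions were given. In the deposited lists the fold enrichment of each peak over its local background is a ratio, its significance is given by the authors as -log10 p and -log10 q, and the summit is an offset in bp. The 2 single-cell matrices were not used, since the files given here paired no gene names with their rows (Cell Ranger 2.1.1 per the processing notes). Sex chromosomes were left out, as no wildtype list covered them.

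Overlapping peaks within a library were merged with the strongest summit kept, and ranked by -log10 p. The 50000 strongest peaks (ATAC) or 20000 (Sox4) on the 19 autosomes became windows of 501 bp around the summit, merged across libraries. Genes came from a RefSeq table of mm10 (GRCm38.p6). Rank shifts among regions in all 5 libraries were fitted with limma 3.58.1 (R 4.3.3; eBayes with trend, genotype the only term) and adjusted by Benjamini-Hochberg over all 28316 regions. Tables were made with Python 3.11.15 and pandas 2.3.3. A two-sided exact rank-sum test of 2 against 3 libraries cannot go below 0.2. Depth was unknown, so no interval was given. The alternatives covered list length, window, ranking column, scale, trend, replicate block, gene distance and each library left out. The genes and lists were chosen with earlier results of these data known. Named regions were those called in the fit, by size of shift, those kept in one genotype, those under Sox4 sites, and the strongest, weakest and missing gene ends.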

Additional observations from a re-analysis of the deposited data

How the results depend on the processing

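Of the 26 calls on rank shifts, 2 (Rnf2 and the Eed region at 3.2 kb) kept their direction and their side of the threshold under every alternative that held the region, and 24 lost it under at least 1. Calls kept numbered 14 without a limma trend, 22 with a logit scale, 23 with 100000 peaks and 26 with full peak extents. The logit scale stretches the end of the ranking, and several shifts were far larger on it. It gave 6.36 at Dnmt3b (18.5 kb), 3.97 at Smarcd3, 3.39 at Smarcd1, -4.11 at Eed (3.2 kb) and -3.73 at Hdac9 (387.9 kb). The limit stated for Dnmt3b, little room for spread near that end, can thus apply to other calls. Ranks by fold enrichment did not hold the regions at Bmi1, Eed (3.2 kb) and Hdac9 (9.2 kb). Of the other calls, 13 were kept and 6 lost by fold enrichment, and 4 reversed: Hdac4 (-1.02), Chd8 (-1.11), Kmt2a (-0.073) and Kmt2d (-0.062). The cause was not tested.

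The 13 regions called higher in the knockout were 6 without a trend, 8 with 25000 peaks and 24 with 100000 peaks. Over all shared regions the 4332 called higher were 3072, 2291 and 7017 in these settings. With a wildtype library left out, the 13 called higher were 4 to 11, against 2490 to 4520 over all shared regions. The 13 called lower were 11 to 14, against 2755 to 4406. Knockout-only regions (19) numbered 12 with 25000 peaks, 51 with 100000 and 2 when required to be absent from the full wildtype lists. Over all regions the 6062 of this class numbered 3399, 11781 and 440. With a library left out the class rests on fewer libraries, and it numbered 23 to 37, against 7086 to 9340 over all regions. Wildtype-only regions (13) numbered 7 with 25000 peaks, 22 with 100000 and 1 when required to be absent from the full knockout lists. With full peak extents they numbered 8, and with a library left out 16 to 19. Over all regions the 4992 of this class numbered 3018, 6372, 164, 4628 and 5927 to 7332 in the same order. Regions with a Sox4 site (6) numbered 3 with 10000 peaks, 11 with all peaks and 1 when all 3 replicates were required. With a library left out they numbered 1 to 6. Over all regions the 1181 with a site numbered 819, 3019, 393 and 575 to 1184 in the same order. With tied Sox4 peaks left out, the count was 4, and with all tied peaks kept it was 6, both alternatives chosen after seeing the data.

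Over the regions, the difference between knockout replicates 1 and 2 and that between wildtype replicates 1 and 2 had r = 0.121, from 2 pairs only, so the replicate numbers were not taken to pair the libraries. With the replicate block, 15 regions were called higher and 13 lower, and 22 of the 26 calls were kept. The 4 lost were Hdac4 (1.43, adjusted p 0.0864 in limma), Eed at 17.0 kb (0.49, 0.0713) and Hdac9 at 111.5 kb (-0.62, 0.0559) and 9.2 kb (-0.52, 0.0516). Read depth was not known for any library, and ranks near 50000 rest on weak peaks.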
